A study of Mus musculus with 12 samples.

Results

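The genes described here are the receptors of estrogens (Esr1 and Esr2), of progesterone (Pgr) and of glucocorticoids (Nr3c1), the steroid 5-alpha reductases Srd5a1 and Srd5a2, the corepressor Ncor1, the receptor chaperone Fkbp4 and the androgen-induced gene Pmepa1. They were taken by name from the deposited table of 20308 gene symbols, which holds all 9. Poly(A) RNA was sequenced from urogenital sinus epithelium of C57BL/6J mice, taken from embryos of stage E15.5. The Control group has 4 libraries from wildtype embryos, and the Dnmt1cKO group has 8 libraries from mutants. In the mutants an Shh-driven Cre recombinase removed Dnmt1, the methyltransferase that copies DNA methylation after replication, from cells that express or once expressed Shh, a gene of this epithelium. Each lysate pooled tissue of several embryos after trypsin had freed the epithelium, and the sex of the embryos is not given in the sources used here. Nothing states that libraries within a group came from separate litters, so p-values measure only how these libraries vary, and that variation may be technical.

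Steroid hormones act through nuclear receptors that bind DNA once they have bound the hormone. Before that, the unliganded receptor is held by chaperones, and on DNA it recruits coactivators or corepressors. The 5-alpha reductases turn testosterone into dihydrotestosterone, the more potent androgen, which directs the growth of prostatic buds from the urogenital sinus. In that organ much of the androgen signal is known to be received by the mesenchyme around the epithelium, which then signals to the buds.

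No gene of the 9 passed the test between Dnmt1cKO and Control, where 1.03% of all 12761 tested genes were called higher and 1.55% lower (edgeR). Of the 9, 7 had enough counts to be tested. By mean level in Dnmt1cKO the 9 genes fell into 2 tiers, with Esr1, Esr2, Pgr and Srd5a2 in the lower. The tiers did not hold in every Control library: Srd5a1 had 1 count in Control 3 and 0 in the library labelled Control 4. Fkbp4, Ncor1, Nr3c1 and Pmepa1 were found in all 12 libraries, and Srd5a1 in 11 of them. Esr1 was found in 10 libraries, Esr2 in 7, Pgr in 5 and Srd5a2 in 3. In the main scaling (TMM) Nr3c1 was the only member whose libraries did not overlap between the groups, with all 8 Dnmt1cKO libraries below all 4 Control libraries. Of all tested genes 0.486% lay wholly lower in this way and 2.59% wholly higher. With library totals alone the groups of Nr3c1 overlapped. Esr1, Esr2 and Pgr had higher means in Dnmt1cKO, with overlapping groups and, in Control, libraries of low depth.

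Library totals ran from 543591 to 7577706 expected counts in Control and from 4007533 to 11970907 in Dnmt1cKO. Levels are given as CPM, counts scaled to a common library size with TMM factors. At this scale a count of 0 allows a level of up to 0.369 CPM in Control 1, 1.01 in Control 2, 2.26 in Control 3 and 8.53 in the library labelled Control 4, taken as 3 counts of the scaled total. The same limit was 0.219 to 0.856 CPM in the Dnmt1cKO libraries. Dnmt1 itself stood at 164, 114 and 237 CPM in Controls 1 to 3, at 2.84 CPM (1 count) in the library labelled Control 4, and at 22.8 to 97 CPM in Dnmt1cKO. The library labelled Control 4 thus went against its label for the deleted gene, and every direction below that rests on it carries that doubt. Dnmt1 had a log2 fold change of -1.29 ± 0.63 (SE; edgeR quasi-likelihood, Benjamini-Hochberg adjusted p = 0.284). Of 24 epithelial markers, 20 to 24 were detected in each library, and Epcam stood at 515 to 949 CPM. Their summed level was 10951, 20764 and 4274 CPM in Controls 1 to 3, 41342 CPM in the library labelled Control 4, and 7665 to 13223 CPM in Dnmt1cKO. Control 3 stood apart in this list, with the lowest sum and little of several defining genes, chosen here after their values were seen. Trp63, the regulator of basal epithelial cells, stood at 2.26 CPM there against 229.8 and 234 CPM in Controls 1 and 2. Krt15, a basal keratin, stood at 267 CPM against 4896 and 11032 CPM. Shh stood at 3.77 CPM against 218 and 84.3 CPM, and Grhl2 had 0 counts against 69 and 107 CPM. Other markers of the list were not low there. Krt8 stood at 856 CPM against 514 and 613 CPM, and Krt18 at 879 CPM against 239 and 300.4 CPM. Epcam stood at 783 CPM against 515 and 641 CPM. Fold changes of Esr1, Nr3c1, Srd5a1, Ncor1, Fkbp4 and Pmepa1 are therefore given with and without Control 3 and the library labelled Control 4. Of 32 stromal markers 26 to 32 were detected, none at 0 throughout, with a summed level of 1663 to 14467 CPM in Control and 907 to 8295 CPM in Dnmt1cKO. Collagens Col3a1, Col1a1 and Col1a2 led the stromal list. Summed markers ran from 8.53 to 145 CPM in Control and 8.33 to 76.3 in Dnmt1cKO for endothelium, from 2.84 to 212 and 11 to 72.7 for immune cells, from 429 to 5825 and 10.4 to 1497 for erythroid cells, from 179 to 895 and 35.4 to 672 for neural and glial cells, and from 0 to 458 and 0.673 to 152 for the Wolffian and Mullerian ducts. Control 3 held the highest sum of the 12 libraries in each of these lists and in the stromal list. Of all these marker lists 1 gene was called, in edgeR, the neuronal Elavl3, which was lower in Dnmt1cKO. The embryonic globin Hbb-bh1 had 0 counts in all libraries. The part of such cells in the results below was not tested beyond the stromal covariate. In pooled tissue fewer cells of a type and less RNA per cell cannot be told apart.

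**Figure D1:**
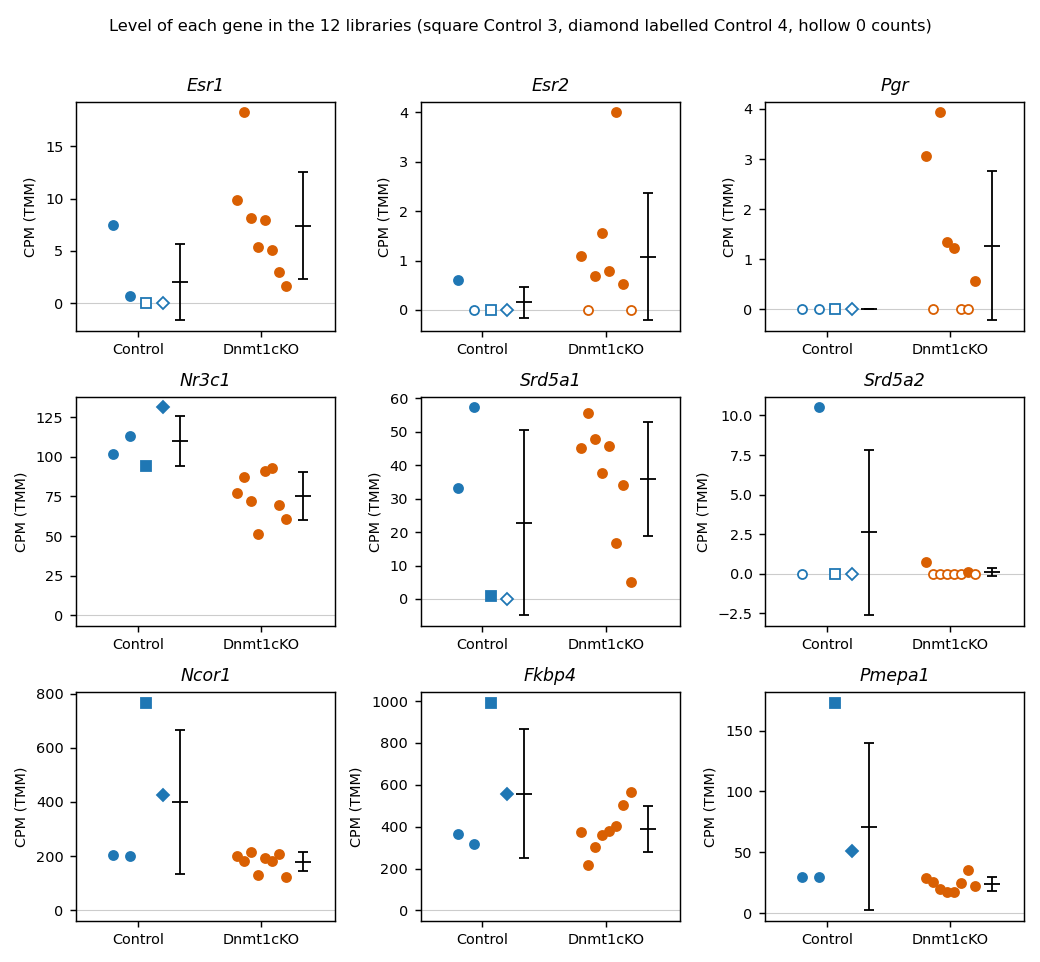
Level of each of the 9 genes in CPM (vertical axis, grey line at 0) in the 4 Control and 8 Dnmt1cKO libraries, 1 point per library, with the group mean and SD as bars; Control 3 is a square, the library labelled Control 4 a diamond, and hollow points have 0 counts. At this TMM scale Nr3c1 lay lower in all 8 Dnmt1cKO libraries. The high Control points of Ncor1, Fkbp4 and Pmepa1 at this scale are Control 3 and the library labelled Control 4.

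Nr3c1 encodes the glucocorticoid receptor (mouse build GRCm38, chromosome 18, 39410545 to 39519421, minus strand). It stood at 102, 113, 94.2 and 131 CPM in Controls 1 to 3 and the library labelled Control 4, in that order. In Dnmt1cKO 1 to 8 it stood at 77, 87.5, 72.3, 51.2, 91.2, 92.9, 69.7 and 60.5 CPM. Every Dnmt1cKO library was lower than every Control library, but the gap between Dnmt1cKO 6 and Control 3 was small against counting error (exact Poisson 95% intervals 87.0 to 99.1 and 78.4 to 112 CPM). Control averaged 110.1 ± 15.8 CPM (SD, n = 4) and Dnmt1cKO 75.3 ± 14.9 CPM (SD, n = 8). The 1.46-fold lower level, a log2 fold change of -0.54 ± 0.51 (SE), was not called (edgeR, Benjamini-Hochberg adjusted p = 0.626). Over all 12761 genes tested, 0.486% lay wholly lower in Dnmt1cKO in this way and 2.59% wholly higher. Nr3c1 was 1 such gene among the 9 in the lower direction, and 0 of the 9 lay wholly higher.

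The separation of Nr3c1 depended on scaling. With RLE size factors it held, beside 0.572% of all genes. With library totals alone the groups overlapped, and 3 of 8 Dnmt1cKO libraries lay below all Controls. The direction did not change: the log2 fold change ran from -1.03 with RLE factors to -0.26 with library totals alone over the 21 alternative settings, and was -0.45 without both Control 3 and the library labelled Control 4. Each sample description has a b code (b4, for example), and the labels do not say what it stands for. Within the codes 4, 5, 6 and 7, which both groups share, Nr3c1 differed by -0.49, -1.11, -0.05 and -0.82 on the log2(CPM + 2) scale. Among all tested genes 51.2%, 42.4%, 33.9% and 21.2% were lower within these codes, and 48.5%, 56.0%, 64.7% and 78.4% were higher. The median over all tested genes was -0.03, 0.18, 1.01 and 1.83 in the same order, and each difference within a code is to be read against it.

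Glucocorticoid-responsive genes did not move together. Of 23 tested, 0 were called higher and 1 lower in edgeR, beside 1.03% and 1.55% of all tested genes. At an unadjusted p below 0.05 there were 1 higher and 3 lower, a level that 8.19% of all tested genes passed as higher and 9.54% as lower. Their median log2 fold change was 0.14, against 0.22 over all tested genes. The called gene was Cdkn1c, an inhibitor of cyclin-dependent kinases that limits growth in the embryo. It stood at 806, 872 and 2393 CPM in Controls 1 to 3, at 486 CPM in the library labelled Control 4, and at 175 to 725 CPM in Dnmt1cKO. It was 3.06-fold lower in Dnmt1cKO (edgeR, Benjamini-Hochberg adjusted p = 0.02), and without Control 3, its highest library, the log2 fold change moved from -1.61 to -0.95 with adjusted p = 0.226. Adding the stromal level as a covariate gave -1.06 (edgeR, adjusted p = 0.246).

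Esr1 encodes estrogen receptor alpha (chromosome 10, 4611593 to 5005614, plus strand), which in the developing tract is known chiefly from the mesenchyme. It stood at 7.50 CPM (61 counts) in Control 1 and 0.674 CPM (2 counts) in Control 2, and had 0 counts in Control 3 and in the library labelled Control 4. Dnmt1cKO 1 to 8 held 9.85, 18.2, 8.17, 5.37, 7.98, 5.09, 3.02 and 1.71 CPM. All 8 Dnmt1cKO libraries held the transcript, and 4 of them lay above every Control. Control 1, the deepest Control library, lay inside the Dnmt1cKO range. At the level of Control 1, Control 2 would have held 22.2 counts, Control 3 9.95 and the library labelled Control 4 2.64. The 0 of the last is therefore not informative at its depth, while Control 2 and Control 3 held fewer counts than that level gives. Within the codes 4 to 7 Esr1 was higher in Dnmt1cKO in each, by 0.10, 1.46, 2.32 and 1.35 on the log2(CPM + 2) scale, the last of these below the all-gene median of 1.83 in code 7.

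The log2 fold change of Esr1 was 1.65 ± 1.35 (SE), or 3.14-fold, and did not pass (edgeR, Benjamini-Hochberg adjusted p = 0.565). It was 4.38 without Control 1 (adjusted p = 0.0969, the lowest of its alternatives) and 0.89 without both Control 3 and the library labelled Control 4, so the size rests on which Controls are kept. Dnmt1cKO 2 held the highest Esr1 level and also the highest stromal marker sum of its group, 8295 CPM. Control 3 held the highest stromal sum of all, 14467 CPM, with 0 Esr1 counts. A stromal covariate gave a log2 fold change of 2.05 (edgeR, adjusted p = 0.581).

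Esr2 encodes estrogen receptor beta (chromosome 12, 76120419 to 76177259, minus strand). It was below the filter on low counts and got no main test. In Control it had 5 counts in Control 1 (0.615 CPM) and 0 in the other libraries. In Dnmt1cKO 1 to 8 it stood at 1.09, 0, 0.694, 1.55, 0.789, 4, 0.521 and 0 CPM. Dnmt1cKO 6, with 40 counts, stood above the rest, and the value of Control 1 lay within the range of the other Dnmt1cKO libraries. The 3 Controls at 0 had limits of 1.01 to 8.53 CPM, above the level of Control 1 in each case, so a lack of Esr2 there was not detectable. Without the filter the log2 fold change was 2.33 ± 2.25 (SE; edgeR, Benjamini-Hochberg adjusted p = 0.599 over 15825 genes).

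Pgr encodes the progesterone receptor, which is itself a classical target of estrogen receptors (chromosome 9, 8899833 to 8968611, plus strand). All 4 Control libraries had 0 counts. Dnmt1cKO 1 to 8 stood at 3.06, 0, 3.93, 1.34, 1.23, 0, 0 and 0.570 CPM, from 42, 0, 51, 13, 14, 0, 0 and 2 counts. The transcript was thus found in 5 of 8 Dnmt1cKO libraries and in 0 of 4 Controls, and the 3 Dnmt1cKO libraries at 0 overlapped with Control. The limit of Control 1, 0.369 CPM, lay below all 5 of these levels, and that of Control 2, 1.01 CPM, below 4 of them, while that of Control 3, 2.26 CPM, lay below 2 and that of the library labelled Control 4 below 0. Over the whole Control group 3 counts correspond to 0.235 CPM. The Dnmt1cKO mean of 1.27 ± 1.49 CPM (SD, n = 8) was 5.4 times that floor. This ratio is not a lower bound on the difference, since the floor covers counting error only and not variation between libraries. It rests on the depth of Control 1. Without Control 1 the floor was 0.646 CPM and the ratio 1.96, and the mean exceeded only the limits of Controls 1 and 2 taken singly. The difference did not pass the test (edgeR, unadjusted p = 0.0376, Benjamini-Hochberg adjusted p = 0.247). Pgr passed the filter only through the Dnmt1cKO libraries. The libraries with most Pgr, Dnmt1cKO 3 and 1, were the deepest of the 12, where a 0 count allows 0.231 and 0.219 CPM, against 0.300 and 0.313 CPM in Dnmt1cKO 6 and 7, which had 0 counts.

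Of 16 tested genes that respond to estrogen or progesterone, 0 were called higher and 1 lower in edgeR, beside 1.03% and 1.55% of all tested genes. At an unadjusted p below 0.05 there were 1 higher and 2 lower. The higher gene was Pgr itself, which had 0 counts in all Controls and passed the filter only through Dnmt1cKO. The median log2 fold change was -0.10, against 0.22 over all tested genes. The called gene was Wnt4, a Wnt ligand that acts below the progesterone receptor in the mammary gland. It was 3.81-fold lower (edgeR, Benjamini-Hochberg adjusted p = 0.0155), and stood highest at 1183 CPM in the library labelled Control 4. Without that library the log2 fold change moved from -1.93 to -0.89 with adjusted p = 0.234. Among the wider family of steroid and related receptors, 18 of 23 genes were tested and none was called by edgeR. Unadjusted p-values below 0.05 went to 1 higher gene, again Pgr, and 2 lower genes. The most abundant of that list were Pgrmc1, a membrane-associated heme-binding protein (log2 fold change 0.42 ± 0.53, SE), and Rxra, a partner of many nuclear receptors (-1.39 ± 0.51, SE; edgeR, Benjamini-Hochberg adjusted p = 0.136).

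The 2 reductases differed in how widely they were found. Srd5a1 (chromosome 13, 69573449 to 69611442, minus strand) is the isoenzyme known from many epithelia. It stood at 33.3 and 57.3 CPM in Controls 1 and 2, at 0.754 CPM (1 count) in Control 3, and had 0 counts in the library labelled Control 4. Levels in Dnmt1cKO 1 to 8 were 45.3, 55.7, 47.8, 37.8, 45.7, 16.7, 34.2 and 5.13 CPM. Controls 1 and 2 lay within the range of Dnmt1cKO to slightly above it, while Control 3 and the library labelled Control 4 lay below every Dnmt1cKO library. At the level of Control 1, Control 3 would have held 44.2 counts and the library labelled Control 4 11.7. The means were 22.8 ± 27.7 CPM (SD, n = 4) in Control and 36.0 ± 17.1 CPM (SD, n = 8) in Dnmt1cKO. Its log2 fold change of 0.61 ± 0.91 (SE) missed the threshold (edgeR, Benjamini-Hochberg adjusted p = 0.783), and without both Control 3 and the library labelled Control 4 it turned to -0.25. Within the codes 4, 5, 6 and 7 Srd5a1 differed by 0.50, -0.58, 4.11 and 3.08 on the log2(CPM + 2) scale, where the all-gene medians were -0.03, 0.18, 1.01 and 1.83. Codes 6 and 7 are those of Control 3 and the library labelled Control 4.

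Srd5a2 (chromosome 17, 74016955 to 74047916, minus strand) is the isoenzyme whose activity is best known in the urogenital mesenchyme. It had 31 counts (10.5 CPM) in Control 2, 10 counts (0.730 CPM) in Dnmt1cKO 1 and 1 count in Dnmt1cKO 7. The other 9 libraries had 0 counts. A single Control library thus carried most counts of this gene, which did not pass the filter on low counts. Without the filter the log2 fold change was -4.36 ± 1.99 (SE; edgeR, Benjamini-Hochberg adjusted p = 0.262 over 15825 genes). Stromal markers summed to 7153 CPM in Control 2 and to 6904 CPM in Control 1, where Srd5a2 was under 0.369 CPM. Of 23 tested genes of steroid synthesis and metabolism, edgeR called none, unadjusted p-values below 0.05 went to 2 higher genes and 1 lower, and the median log2 fold change was -0.09. The most abundant were Hsd17b4, a peroxisomal enzyme of fatty acid breakdown named for its steroid dehydrogenase activity (log2 fold change -0.57 ± 0.47, SE), and Por, the electron donor of cytochromes P450 (-0.87 ± 0.51, SE).

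Loss of Dnmt1 concerns methylation of CpG sites, which was not measured in these libraries. The 250 bases before the annotated start are shown for a receptor found only in Dnmt1cKO (Pgr), for the pair of reductases, and for the most abundant member (Fkbp4), to set their CpG content beside their levels. Sequences are from RefSeq (GRCm38.p6), 5′ to 3′ on the strand of the gene, with each CpG in capitals.
Pgr: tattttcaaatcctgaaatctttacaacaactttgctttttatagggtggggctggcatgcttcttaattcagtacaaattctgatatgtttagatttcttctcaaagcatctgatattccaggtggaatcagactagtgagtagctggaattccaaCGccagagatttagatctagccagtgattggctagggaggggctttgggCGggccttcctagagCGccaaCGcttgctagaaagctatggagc
Srd5a1: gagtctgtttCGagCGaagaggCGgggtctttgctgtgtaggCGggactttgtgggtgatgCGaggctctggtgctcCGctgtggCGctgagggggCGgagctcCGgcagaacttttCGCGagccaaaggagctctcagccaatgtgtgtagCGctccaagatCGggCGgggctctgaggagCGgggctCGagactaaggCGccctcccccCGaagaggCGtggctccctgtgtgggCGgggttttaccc
Srd5a2: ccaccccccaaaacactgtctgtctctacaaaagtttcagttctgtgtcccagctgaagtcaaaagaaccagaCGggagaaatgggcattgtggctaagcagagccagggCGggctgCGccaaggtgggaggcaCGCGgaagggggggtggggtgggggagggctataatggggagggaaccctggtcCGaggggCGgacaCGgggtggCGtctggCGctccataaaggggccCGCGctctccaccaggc
Fkbp4: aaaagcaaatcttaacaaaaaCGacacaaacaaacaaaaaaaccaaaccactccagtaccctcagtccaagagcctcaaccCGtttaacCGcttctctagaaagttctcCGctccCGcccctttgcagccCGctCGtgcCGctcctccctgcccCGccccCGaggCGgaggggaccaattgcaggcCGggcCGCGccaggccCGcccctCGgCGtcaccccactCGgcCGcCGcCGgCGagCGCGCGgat
These windows lie at chr9:8899583-8899832 (plus strand), chr13:69611464-69611713, chr17:74047861-74048110 and chr6:128438657-128438906 (all minus strand). They hold 4, 20, 12 and 25 CpG sites in this order.

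A window was found for 7 of the 9 members, with none for Nr3c1 and Pmepa1. Over all 32851 windows of the same length the median was 6 CpG sites, and 62.2% held at least as many as that of Pgr, 33.5% as that of Srd5a2, 17.9% as that of Srd5a1 and 10.7% as that of Fkbp4. The low-level receptors had few to moderate numbers, with 4 and 7 in the windows of Esr1 and 12 in that of Esr2. The windows of Ncor1 held 34 and 2. The 6-base core AGAACA of sites bound by the receptors of glucocorticoids, progesterone and androgens was searched on both strands, as was AGGTCA, the half-site of estrogen receptors. AGAACA was found in 1 window, the CpG-poor one of Ncor1, with 2 matches, and AGGTCA in 0 of the members' windows. Over all windows 16.1% held AGAACA and 14.0% held AGGTCA.

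Per kilobase of exon (all exons of a gene merged, GENCODE M21), Fkbp4 was the most abundant of the 9 in each of the 12 libraries, at 77.7 to 355 CPM per kilobase. In Dnmt1cKO the means were 139 ± 39.1 for Fkbp4, 14.1 ± 2.69 for Ncor1, 12.4 ± 5.87 for Srd5a1, 9.80 ± 1.94 for Nr3c1 and 4.85 ± 1.23 for Pmepa1 (CPM per kilobase, SD, n = 8). Neighbours in this order did not differ beyond their spread from Ncor1 to Nr3c1. Below them came Esr1 at 0.543 ± 0.375, Esr2 at 0.321 ± 0.382, Pgr at 0.148 ± 0.175 and Srd5a2 at 0.0649 ± 0.159 (CPM per kilobase, SD, n = 8), whose neighbours overlapped throughout. In Control the order was Fkbp4, Ncor1, Pmepa1, Nr3c1, Srd5a1, Srd5a2, Esr1, Esr2 and Pgr, and the SD was near or above the mean for Pmepa1, Srd5a1, Srd5a2, Esr1 and Esr2. Among the 8 Dnmt1cKO libraries the CPM of Ncor1 and Nr3c1 varied least, with a coefficient of variation of 19.1% and 19.8%, against 47.4% for Srd5a1, 69.1% for Esr1 and 118% for Pgr.

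**Figure D2:**
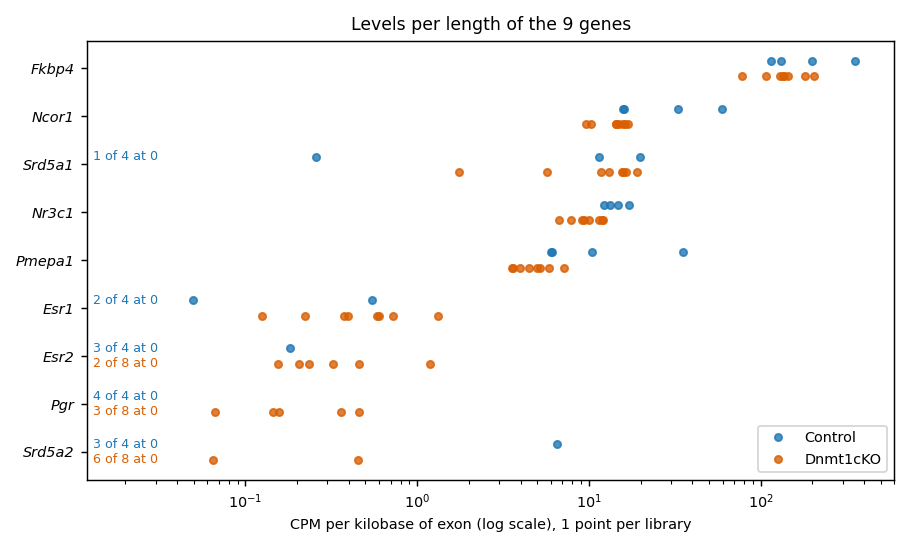
CPM per kilobase of merged exon (horizontal log axis) for the 9 genes, 1 point per library, Control and Dnmt1cKO in separate colours, with the number of libraries at 0 written at the left. Fkbp4 stands above all other members in every library, and Esr1, Esr2, Pgr and Srd5a2 lie below 2 CPM per kilobase except for Srd5a2 in Control 2, at 6.51.

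Ncor1, Fkbp4 and Pmepa1 shared a pattern in Control at TMM scale, highest in Control 3 and next in the library labelled Control 4. With library totals alone the latter held 359 CPM of Fkbp4, against 393 and 324 CPM in Controls 1 and 2. Its Pmepa1 was then 33.1 CPM, against 31.7 and 30.5 CPM. Its Ncor1 stayed higher, at 274 CPM against 220.4 and 204 CPM. Ncor1 encodes a corepressor that brings histone deacetylase to nuclear receptors (chromosome 11, 62316426 to 62458541, minus strand). It stood at 205, 201 and 767 CPM in Controls 1 to 3 and at 424 CPM in the library labelled Control 4. The values of Dnmt1cKO 1 to 8 were 202, 183, 215, 131, 193, 183, 209 and 124 CPM. Controls 1 and 2 lay within the range of Dnmt1cKO, and the other 2 Control libraries lay above it. Its log2 fold change of -1.15 ± 0.41 (SE) missed the threshold (edgeR, unadjusted p = 0.00808, Benjamini-Hochberg adjusted p = 0.126). Without both Control 3 and the library labelled Control 4 it was -0.10. Within the codes 4, 5, 6 and 7 it differed by 0.07, -0.60, -1.98 and -1.33 on the log2(CPM + 2) scale.

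Ncor1 was called lower by 3 of 21 alternatives. DESeq2 gave a log2 fold change of -1.62 (Benjamini-Hochberg adjusted p = 0.0182) where it called 8.07% of all genes lower. RLE factors in edgeR gave -1.62 (adjusted p = 0.0399) where 5.69% of genes were called lower, and leaving out Control 1 gave -1.36 (adjusted p = 0.0368) where 3.75% were. In edgeR with all libraries 1.03% of genes were called higher and 1.55% lower, and none of the 7 tested members passed. At an unadjusted p below 0.05 they counted 1 higher (Pgr, which passed the filter only through Dnmt1cKO) and 2 lower (Ncor1 and Pmepa1), beside 8.19% and 9.54% of all tested genes. DESeq2 called those 2 lower. The 132 higher and 198 lower calls over all genes became 170 and 726 with RLE factors and 113 and 47 with library totals alone. Ncor1 shares 82 exon bases with Pigl on the opposite strand, Srd5a1 476 with Gm17108 and Srd5a2 144 with CT025731.1 on their own strands, so some reads there cannot be told apart.

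Fkbp4 encodes FKBP52, a cochaperone of HSP90 that takes part in the maturation of steroid receptors (chromosome 6, 128429735 to 128438677, minus strand). It stood at 366, 318 and 993 CPM in Controls 1 to 3 and at 554 CPM in the library labelled Control 4. In Dnmt1cKO 1 to 8 it stood at 374, 217, 302, 359.5, 379.6, 403, 504 and 567 CPM. The groups overlapped, and only Control 3 lay above all Dnmt1cKO libraries. A difference of -0.52 ± 0.37 (SE) in log2 missed the threshold (edgeR, Benjamini-Hochberg adjusted p = 0.503). It was -0.08 without Control 3 and turned to 0.25 without both it and the library labelled Control 4. Within the 4 codes it differed by -0.28, 0.17, -1.38 and -0.19 on the log2(CPM + 2) scale. Of 20 receptor chaperones, all tested, edgeR called none, unadjusted p-values below 0.05 went to 2 higher genes and 3 lower, and the median log2 fold change was -0.02. The most abundant, the HSP90 genes Hsp90ab1 and Hsp90aa1, had log2 fold changes of 0.07 ± 0.25 and -0.83 ± 0.38 (SE). Hsp90aa1 stood at 7864 and 12008 CPM in Control 3 and the library labelled Control 4, and at 1369 to 4009 CPM in all others.

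Pmepa1 encodes a membrane protein induced by androgens in prostate cells and by TGF-beta, whose signal it restrains (chromosome 2, 173224458 to 173276533, minus strand). It stood at 29.5, 30.0 and 173 CPM in Controls 1 to 3 and at 51.2 CPM (18 counts, exact Poisson 95% interval 30.3 to 80.9) in the library labelled Control 4. In Dnmt1cKO 1 to 8 it stood at 28.7, 25.6, 19.6, 17.7, 17.5, 24.5, 35.1 and 22.0 CPM. At TMM scale Dnmt1cKO 7 was the only mutant library that was not below all Controls. With library totals alone 6 of 8 mutant libraries lay below all Controls. The 2.97-fold lower level of Pmepa1, -1.57 ± 0.69 (SE) in log2, missed the threshold (edgeR, unadjusted p = 0.0288, Benjamini-Hochberg adjusted p = 0.219). DESeq2 gave -1.90 with adjusted p = 0.0132. Without Control 3 it was -0.61, and without both Control 3 and the library labelled Control 4 it was -0.26, each in edgeR. Within the codes 4, 5, 6 and 7 it differed by -0.55, -0.70, -3.17 and -0.89 on the log2(CPM + 2) scale. Pmepa1 and Nr3c1 were the 2 members that were lower within all 4 codes, Nr3c1 by only -0.05 in code 6. Each code has 1 Control library, and the share of all tested genes lower within all 4 was not computed.

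**Figure D3:**
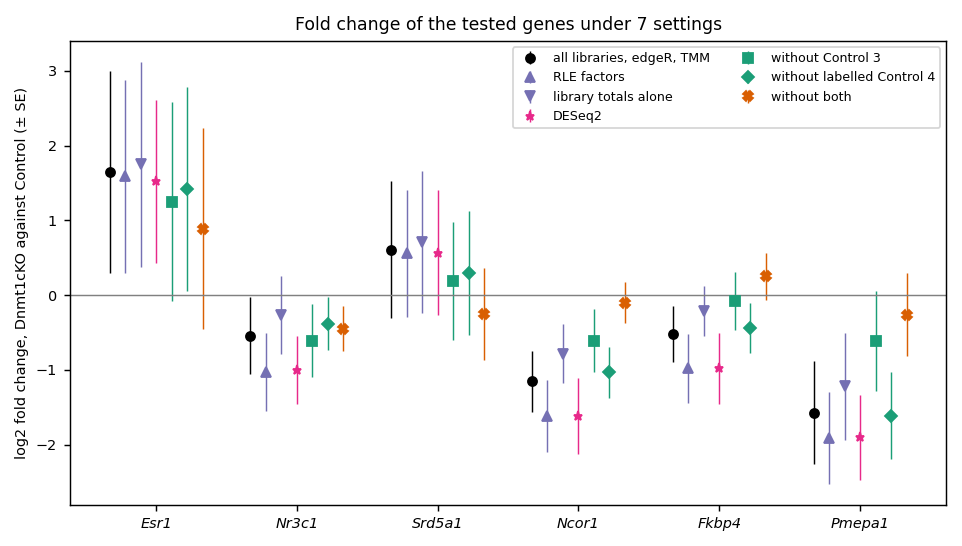
Log2 fold change of Dnmt1cKO against Control (vertical axis, with its SE) for 6 of the tested genes under 7 settings; Pgr, with 0 counts in Control, is left out because its fitted value depends on the prior count. Ncor1, Fkbp4 and Pmepa1 move towards or past 0 once Control 3 and the library labelled Control 4 are left out, while Nr3c1 stays between -1.03 and -0.26.

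Androgen-responsive genes other than Pmepa1 went in both directions. Of 29 tested, Pmepa1 included, 17 had a log2 fold change above 0 and 12 below, edgeR called none, and unadjusted p-values below 0.05 went to 3 higher genes and 4 lower. Their median was 0.56. The most abundant were Acsl3, an acyl-CoA synthetase (log2 fold change 0.90 ± 0.48, SE), and Sms, spermine synthase (0.50 ± 0.60, SE). Among 22 corepressors, all tested, 0 were called higher and 3 lower in edgeR with a median of 0.34. Of all tested genes 1.03% were called higher and 1.55% lower, with a median of 0.22. Gps2, a subunit of the NCOR complex, was 5.51-fold lower, and the COUP-TF orphan receptors Nr2f1 and Nr2f2 were 7.39-fold and 3.39-fold lower (edgeR, Benjamini-Hochberg adjusted p = 0.00934, 0.0298 and 0.0151). Gps2 and Nr2f2 stood highest in the library labelled Control 4, at 975 and 1641 CPM, and without it had adjusted p = 0.279 and 0.19 in edgeR. Nr2f1 stood highest in Control 3, at 552 CPM, and without it had adjusted p = 0.841. A stromal covariate moved the log2 fold change of Nr2f1 from -2.89 to -0.96 (edgeR, adjusted p = 0.729).

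Among 33 coactivators, all tested, 0 were called higher and 1 lower in edgeR, with 0 higher and 6 lower at an unadjusted p below 0.05 and a median of -0.11. The called gene was Gata3, a transcription factor of urothelium (2.93-fold lower, edgeR, Benjamini-Hochberg adjusted p = 0.0459, and 0.163 without the library labelled Control 4). Together the lists held 176 tested genes, of which 0 were called higher and 6 lower in edgeR, beside 1.03% and 1.55% of all tested genes. DESeq2 called 8 and 22 of them, beside 487 and 1030 over all genes. An unadjusted p below 0.05 was reached by 12 higher and 25 lower genes of the 176, beside 1045 and 1218 of the 12761 tested (8.19% and 9.54%). Without both Control 3 and the library labelled Control 4, 0 were called in either direction.

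Stromal marker sums are given here beside the members, and the part of stroma was not tested beyond the covariate. Control 3 had the highest sum, 14467 CPM, and the highest Ncor1, Fkbp4 and Pmepa1. The library labelled Control 4 had the next highest Ncor1 and Pmepa1 of the 12 libraries at TMM scale, with a sum of 1663 CPM. With library totals alone its Pmepa1 was 33.1 CPM (18 counts), below the 36.8 CPM of Dnmt1cKO 7. Within Dnmt1cKO, where the sum ran from 907 to 8295 CPM, Pmepa1 ranged from 17.5 to 35.1 CPM. Fits with a stromal covariate gave log2 fold changes of -1.15 for Ncor1, -0.50 for Fkbp4, -1.35 for Pmepa1, -0.65 for Nr3c1 and 0.94 for Srd5a1, none called (edgeR).

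**Figure D4:**
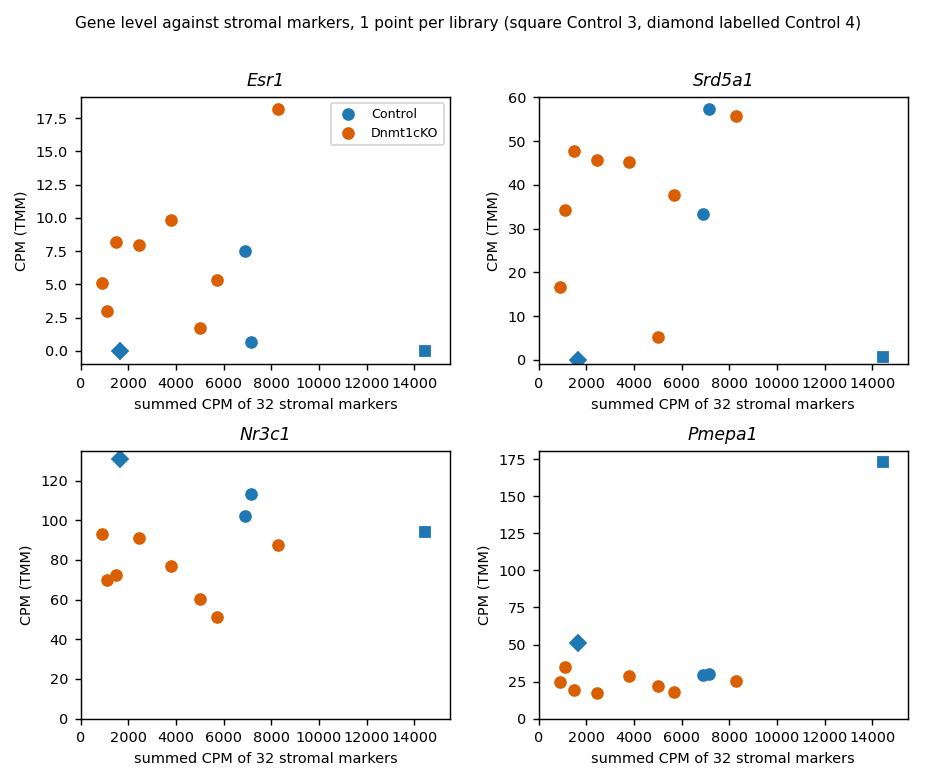
Level in CPM (vertical axis) of Esr1, Srd5a1, Nr3c1 and Pmepa1 against the summed CPM of 32 stromal markers (horizontal axis), 1 point per library, with Control 3 as a square and the library labelled Control 4 as a diamond. The highest Pmepa1 level is in Control 3, which has the highest stromal sum and 0.754 CPM of Srd5a1.

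Genes with the most similar pattern over the 8 Dnmt1cKO libraries were looked up among 7228 genes of at least 20 CPM, as a description without a test. The measure was Pearson's r of log2(CPM + 2) over libraries of 1 group, which differ in depth and in stromal marker sum. For Srd5a1 they were Pxn, Pole and Amotl2 (r = 0.994, 0.989 and 0.984), with r = 0.638, 0.972 and 0.362 over all 12 libraries. Pole is the catalytic subunit of a replicative DNA polymerase. For Ncor1 they were Lrrc58, Eef2 and Rc3h1 (0.976, 0.972 and 0.967), with 0.478, 0.178 and -0.087 over all 12. For Fkbp4 they were BC005537, Clpb and Rp9 (0.976, 0.975 and 0.971), with 0.678, -0.615 and 0.700 over all 12. For Nr3c1 they were 2610507B11Rik, Prex2 and Heatr3 (0.927, 0.926 and 0.912), with -0.139, -0.285 and -0.395 over all 12. For Pmepa1 they included G6pdx and Tab2 (0.924 and 0.874), with -0.859 and 0.192 over all 12. For most of these genes the likeness seen in Dnmt1cKO thus did not extend to all libraries.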

How the data were processed

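The authors deposited 1 table of RSEM expected counts (estimated counts that need not be whole) for 20308 gene symbols in 12 libraries. The submitters' processing notes name RSEM 1.2.3, Bowtie 0.12.9, bcl2fastq 2.17.1.14 and the build mm10. For annotation, filters and strand setting the sources used here give nothing. Expected counts were rounded to whole numbers. Groups came from sample titles. Dnmt1cKO was compared with Control by the quasi-likelihood test of edgeR 4.0.16 (R 4.3.3; robust, genotype only, TMM, filterByExpr with minimum count 10 and total 15), checked on simulated data. P-values were adjusted by Benjamini-Hochberg over 12761 genes, with 0.05 as the threshold. DESeq2 1.42.0, other scalings and filters, a replicate block, a stromal covariate and left-out libraries were alternatives. Library totals and the levels that a count of 0 allows stand with the results, and intervals cover counting error only, since PCR copies were not marked. Exon lengths and coordinates are from GENCODE M21 (GRCm38, the assembly of mm10).

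Named genes are all 9 members, up to 6 called genes of each pathway list in each direction or, where none was called, its 2 most abundant genes, the 3 most abundant stromal markers, and for each member of at least 20 CPM in Dnmt1cKO the 3 genes of most similar pattern, of which 1 is not reported here. The members and lists were chosen with earlier results of these data known.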

Additional observations from a re-analysis of the deposited data

Results flagged for a closer look

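Each of the 9 genes was checked in Control and in Dnmt1cKO, 18 groups of values in all, for a library far from the rest of its group. In 6 of them a library stood apart by a gap test. Its rate of about 1 in 20 groups holds for values of normal spread, not for counts near 0. Where all other Controls had 0 counts, as for Esr2 and Srd5a2, any count passes. At the Esr2 level of Control 1, Controls 2 and 3 would have held 1.82 and 0.815 counts, and the library labelled Control 4 0.216. In Control, Esr1 stood at 7.50 CPM in Control 1 against 0.674 CPM in the next library, Esr2 at 0.615 CPM in Control 1 against 0, Srd5a2 at 10.5 CPM in Control 2 against 0, and Pmepa1 at 173 CPM in Control 3 against 51.2 CPM. In Dnmt1cKO, Esr2 stood at 4 CPM in Dnmt1cKO 6 against 1.55 CPM, and Srd5a2 at 0.730 CPM in Dnmt1cKO 1 against 0.104 CPM. The groups of Esr1, Esr2 and Srd5a2 in Control include the library labelled Control 4 at 0 counts, which allows up to 8.53 CPM.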

How the results depend on the processing

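Esr1, Nr3c1, Ncor1 and Pmepa1 kept their direction under all 21 alternatives. The direction of Pgr, with 0 counts in all Controls, could not turn and shows nothing about stability. Without both Control 3 and the library labelled Control 4, Srd5a1 reversed to -0.25 and Fkbp4 to 0.25; the cause was not tested. Ncor1 passed the threshold with DESeq2 (-1.62), with RLE factors (-1.62) and without Control 1, and ran from -1.37 to -0.61 when single libraries were left out. Pmepa1 passed with DESeq2 (-1.90). The median log2 fold change of all genes was 0.22. It became 0.07 under RLE factors and 0.38 under library totals alone.

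Over all genes, 132 were called higher and 198 lower. DESeq2 called 487 and 1030, and without both Control 3 and the library labelled Control 4, 45 and 2 were called. Lower calls numbered 726 using RLE factors and 47 using library totals. Leaving out single libraries gave 60 to 657 higher and 36 to 494 lower. Of the pathway genes, 0 higher and 6 lower became 8 and 22 with DESeq2, 1 and 16 using RLE factors, 0 and 1 using totals alone, 0 to 7 and 2 to 11 without single libraries, and 0 lower without those 2 Controls.

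Libraries of the 2 groups that share a number did not deviate together (correlations -0.055 to 0.061). This check cannot decide whether the numbers pair them, since the Controls differ widely in depth and the labels do not explain the b code. With the b code as a replicate block, 72 genes were called lower, and 1 pathway gene was higher and 1 lower. With the title number as a block, 34 were higher and 31 lower, with 0 lower pathway genes. No member was called under either block. Depth limits what a 0 count shows for Esr2 in Controls 2 and 3 and for Pgr in Control 3. The same holds for Esr1, Esr2 and Pgr in the library labelled Control 4.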
